A study of Mus musculus with 6 samples.

Results

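The 14-3-3 family was described in single-cell RNA sequencing of CD45+ cells from digested, inflamed mouse joints. Its members were found by symbol, as the rows Ywhaz, Ywhab, Ywhae, Ywhag, Ywhah and Ywhaq of the gene table. All 6 were present among 20394 genes, and they encode the 14-3-3 isoforms ζ, β, ε, γ, η and θ. Together they held 616500 UMIs (unique molecular identifiers, each counting 1 captured transcript end), or 0.127% of all UMIs in 32953 cells.

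The cells came from 6 samples of C57BL/6 mice with antigen-induced arthritis. All mice, controls included, were immunized with 10 μg methylated bovine serum albumin (mBSA) in complete Freund's adjuvant. They received 100 μg mBSA in the knee on day 21, and cells were taken 3 days after that challenge. From day 21, mice of 2 samples were injected intraperitoneally with PBS, the vehicle, and mice of 4 samples with 300 μg PEPITEM. The mice were bought at 8 weeks of age and housed for at least 2 weeks before use. The model affects the injected knee, and the sort kept leukocytes, so the stromal and vascular cells of the joint were largely not sampled.

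Proteins of the 14-3-3 family act as dimers that bind phosphorylated serine or threonine motifs on client proteins and change where those clients sit in the cell, how long they last or how active they are. Known clients include the cell death regulator BAD, CDC25 phosphatases and FOXO transcription factors. The family is also the source of PEPITEM, a peptide of the ζ isoform that B cells are known to release in response to adiponectin. PEPITEM limits the movement of effector and memory T cells across endothelium, while the authors report more crossing by regulatory T cells treated with it. Levels of the mRNAs say nothing of how much peptide is released.

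The stretch that encodes PEPITEM was located in the coding sequence of Ywhaz and aligned with the same place in the other members, because the peptide is the reason for looking at the family here. It lies in exon 3 of Ywhaz, at chr15:36790855-36790896 on the minus strand (GRCm38, GENCODE M21), and encodes residues 28 to 41 of a protein of 245 residues. The windows below are 42 bases, 5′ to 3′, and capitals mark bases that differ from Ywhaz.
Ywhaz: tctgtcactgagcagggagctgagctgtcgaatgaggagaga
Ywhaq: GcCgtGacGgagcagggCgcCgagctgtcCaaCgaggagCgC
Ywhab: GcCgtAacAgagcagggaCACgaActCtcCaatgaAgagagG
Ywhag: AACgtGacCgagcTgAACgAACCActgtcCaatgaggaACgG
Ywhah: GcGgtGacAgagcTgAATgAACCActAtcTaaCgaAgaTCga
Ywhae: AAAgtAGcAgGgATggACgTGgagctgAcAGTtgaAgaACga
Ywhaq had 13 of the 14 encoded residues of the Ywhaz window and Ywhab had 12. The other windows were less alike, with 9 residues shared by Ywhag, 8 by Ywhah and 6 by Ywhae. Over the whole protein the order was different, since Ywhab shared 86.2% of its residues with Ywhaz, Ywhaq 79.6%, Ywhah 75.6%, Ywhag 74.9% and Ywhae 65.5%. The Ywhaq window is in exon 2 of its gene at chr12:21416969-21417010 (minus strand), the Ywhab window in exon 2 at chr2:164011692-164011733 and the Ywhae window in exon 2 at chr11:75751901-75751942 (plus strand). In Ywhag and Ywhah, both on chromosome 5, the window runs across the junction of exons 1 and 2. The assay captures transcripts at their 3′ ends, so the counts are of whole genes and not of this window. GENCODE M21 also holds 3 processed pseudogenes of Ywhaq, none of them a row of the table, and whether reads were shared between them and Ywhaq was not tested.

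Cell barcodes carry a library number from 1 to 6, and no source used here ties those numbers to PBS or PEPITEM, so no comparison of treatments was made. The libraries held 2919 to 9345 cells and 47273569 to 123367661 UMIs, with medians of 9923 to 14001 UMIs per cell. In all, 138 barcode sequences occurred in 2 libraries. Levels are given as the UMIs of a gene per 1000000 UMIs of a class (CPM), and the spread as the values of the lowest, median and highest library. A pair of classes was set apart only where the range of one over libraries did not overlap that of the other. Since the treatment behind each number is unknown, the libraries do not replicate a condition, and no p-value or mean with an SD is given for them.

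Cells were put in classes by marker genes, each class needing at least 3 detected markers. Of 24 classes, 19 had at least 50 cells and held 29833 cells, and 2981 cells (9.05%) fell in none. The largest were mature neutrophil-like (7338 cells), immature neutrophil-like (5358), monocyte-like (5303), macrophage-like (3994) and B cell-like (2341). Granulocyte precursor-like (850 cells), precursor B cell-like (901) and stem and progenitor-like cells (354) were also present. Isolated joints were digested, and whether cells of any class came from synovium or bone marrow was not tested. Depth differed widely, with a median of 4350 UMIs in mast cell-like cells, 5530 in mature neutrophil-like cells and 35300 in the granulocyte precursor-like class. Ptprc, which encodes the CD45 used for the sort, was detected in at least 82.7% of the cells in each of the 19 classes but mast cell-like (67.6%) and fibroblast-like cells (17.8%).

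Ywhaz, the parent of PEPITEM, was the most even member. Its pooled level ran from 264 CPM in fibroblast-like cells to 582 CPM in mast cell-like cells, a 2.21-fold range. The level in mature neutrophil-like cells was 388 CPM in the lowest library, 465 CPM in the median and 511 CPM in the highest. B cell-like cells, the known source of PEPITEM, were at 349.9, 415 and 443 CPM, macrophage-like cells at 355, 402 and 464 CPM, and T cell-like cells at 317, 368 and 424 CPM. These ranges overlap, and so did those of all 18 pairs of classes next to each other in the order of Ywhaz. That count does not measure evenness. It was 18 of 18 also for Ywhae and Ywhag, whose pooled levels had 3.60-fold and 3.96-fold ranges. The B cell-like level ranked 9 of 19.

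**Figure D1:**
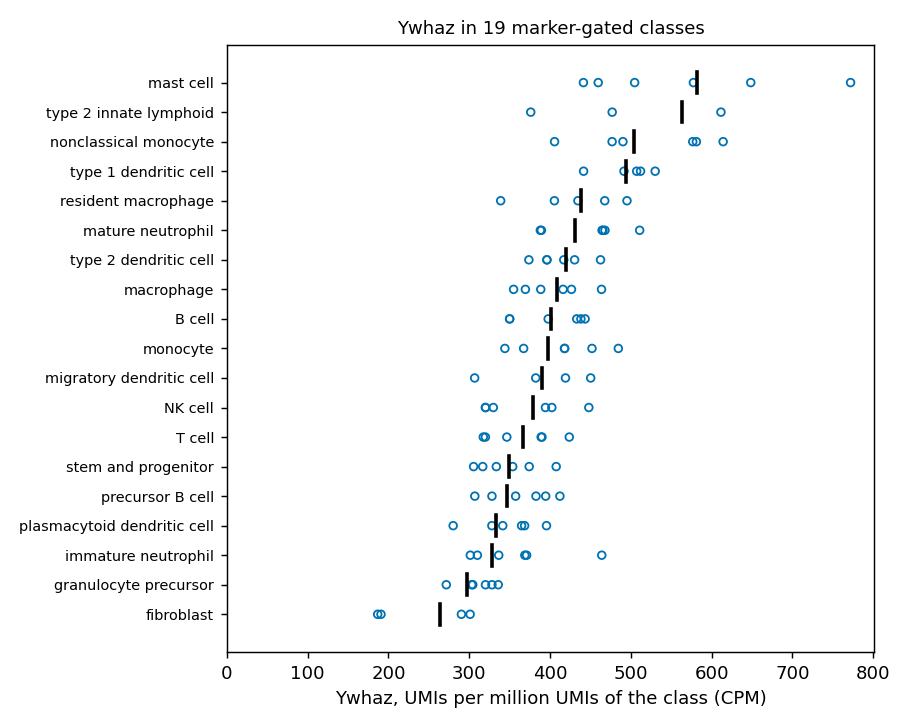
Ywhaz in 19 marker-gated classes, in UMIs per 1000000 UMIs of the class (CPM); open circles are barcode libraries with at least 10 cells of the class and black bars the pooled level. The circles of neighboring classes overlap throughout, and the pooled level runs from 264 CPM in fibroblast-like to 582 CPM in mast cell-like cells.

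Mast cell-like cells had the highest Ywhaz level, at 441, 541 and 772 CPM in the lowest, median and highest library, but with 542 UMIs in 176 cells. The second level, 564 CPM in type 2 innate lymphoid-like cells, rested on 63 cells and 356 UMIs. Nonclassical monocyte-like cells followed at 504 CPM and type 1 dendritic cell-like cells at 494 CPM. At the lower end were granulocyte precursor-like cells at 272, 312 and 336 CPM and fibroblast-like cells at 187, 241 and 301 CPM over 4 libraries.

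Over the 19 classes, the SD of log2(CPM + 1) was 0.29 for Ywhaz, 0.40 for Ywhab, 0.50 for Ywhae, 0.52 for Ywhah, 0.59 for Ywhag and 0.66 for Ywhaq. The median of the 5972 genes of at least 20 CPM was 0.75. Of these genes, 1.77% varied less over classes than Ywhaz, 8.62% less than Ywhab and 39.5% less than Ywhaq. Among the 1687 genes of at least 100 CPM, 1.13% varied less than Ywhaz. All 6 members varied less than the median gene.

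**Figure D2:**
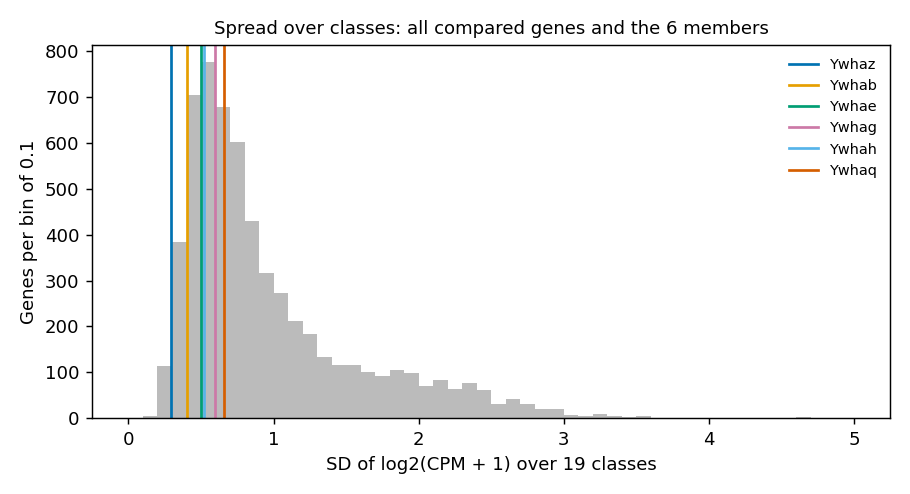
Histogram of the SD of log2(CPM + 1) over 19 classes for 5972 genes (grey bars, genes per bin of 0.1), with a colored line for each of the 6 members. Ywhaz, at 0.29, lies at the left edge of the distribution and Ywhaq, at 0.66, nearest to the median gene at 0.75.

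Each UMI counts 1 captured transcript end, and an effect of gene length on the order of members within a class was not tested. Differences between the members in capture or read mapping were not tested, and the comparisons of members below carry that limit. Ywhaz was the highest of the 6 in 13 of 19 classes and Ywhae, the ε isoform, in the other 6. In 10 classes Ywhaz was above Ywhae in every library, among them T cell-like, B cell-like, macrophage-like and monocyte-like cells and both later neutrophil classes. In 3 classes Ywhaz was below Ywhae in every library. These were precursor B cell-like cells, where the ratio of Ywhaz to Ywhae was 0.726, plasmacytoid dendritic cell-like cells at 0.760, and granulocyte precursor-like cells at 0.877.

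The largest pooled part of Ywhaz was in mature neutrophil-like cells. There Ywhaz gave 46.0% of the 14-3-3 UMIs (41.8% to 48.1% over libraries). The part was 33.1% in immature neutrophil-like cells (31.2% to 37.9%) and 23.4% in granulocyte precursors (22.8% to 25.1%). Type 2 innate lymphoid-like cells (40.4%, 37.5% to 45.1% over 3 libraries) had a range that overlapped the mature one. So did nonclassical monocyte-like cells (40.0%, 35.8% to 43.1%). The ratio of Ywhaz to Ywhae in mature neutrophil-like cells was 3.24, with a range of 2.47 to 3.50 over libraries. Ywhaq, the θ isoform, gave 5.63% of the 14-3-3 UMIs in mature neutrophil-like cells, 20.04% in T cell-like cells and 23.3% in NK cell-like cells. Ywhaz, Ywhaq and Ywhab, the members whose PEPITEM windows are most alike, together gave from 49.3% in migratory dendritic cell-like cells to 69.1% in mast cell-like cells, with 68.8% in type 2 innate lymphoid-like and 67.8% in mature neutrophil-like cells.

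**Figure D3:**
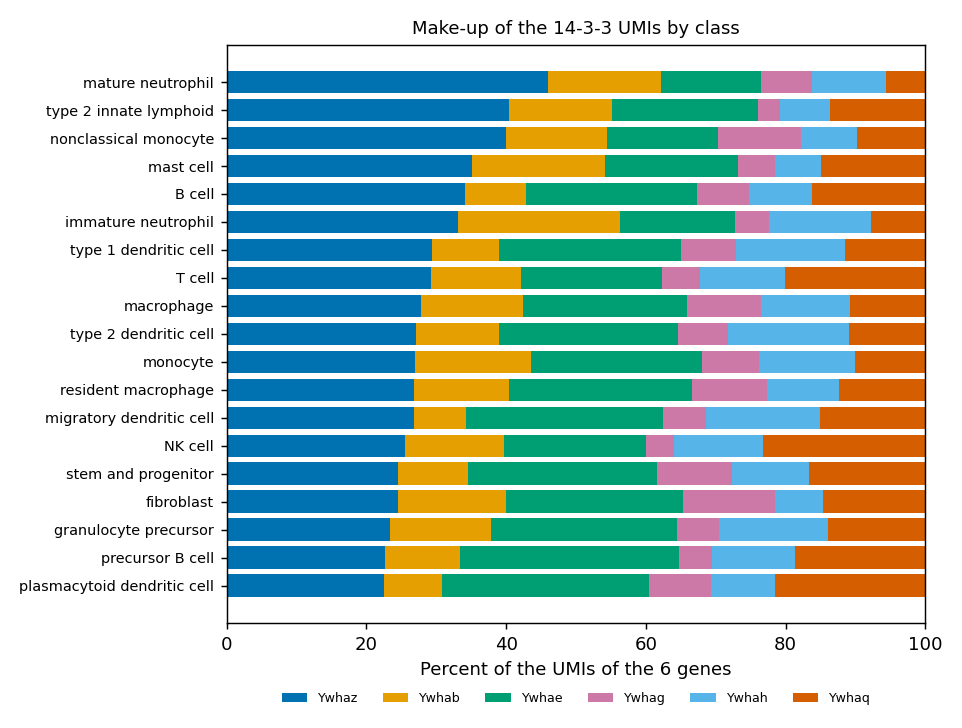
Make-up of the 14-3-3 UMIs in 19 classes, in percent of the UMIs of the 6 genes pooled over libraries, with classes ordered by the part of Ywhaz. Ywhaz takes 46.0% in mature neutrophil-like cells and 22.5% in plasmacytoid dendritic cell-like cells, where Ywhae and Ywhaq take more.

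The family as a whole had its lowest pooled CPM in the neutrophils. The 6 genes summed to 935 CPM in mature neutrophil-like cells (848 to 1223 over libraries) and 990 CPM in immature ones (939 to 1225). Sums in monocyte-like cells were 1374 to 1596 CPM, in macrophage-like cells 1386 to 1535 CPM and in precursor B cell-like cells 1489 to 1671 CPM, so these ranges did not overlap those of the neutrophils. The sums in fibroblast-like cells (1008 to 1089 CPM), B cell-like cells (1119 to 1291) and T cell-like cells (1055 to 1458) did. Per cell the order was different, with 20.6 family UMIs in immature and 7.62 in mature neutrophil-like cells, beside 19.3 in precursor B cell-like, 13.3 in T cell-like and 7.65 in B cell-like cells. The median gene was itself 1.04 higher on the log2 scale in B cell-like than in mature neutrophil-like cells, and the median member 0.22 higher. For granulocyte precursor-like against mature cells these values were 0.70 and 0.64, and for immature against mature cells -0.15 and 0.41. Other classes were not set against the neutrophils in this way.

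The other members each had their own order. Ywhae was highest in precursor B cell-like cells, at 442, 491 and 554 CPM in the lowest, median and highest library, and lowest in mature neutrophil-like cells at 111, 141 and 207 CPM. Type 1, plasmacytoid and migratory dendritic cell-like cells and resident macrophage-like cells came next after the highest class, at 411 to 440.0 CPM pooled. Ywhaq was highest in NK cell-like cells, at 280.1, 338 and 453 CPM, and lowest in mature neutrophil-like cells at 45.2, 52.6 and 93.2 CPM, a 6.55-fold pooled range that was the widest of the family. A gap in the order of Ywhaq lay just above immature neutrophil-like cells, at 71.5, 78.3 and 90.3 CPM, below every library of the nonclassical monocyte-like cells next above them (105 to 176 CPM).

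Ywhah, the η isoform, was highest in type 2, type 1 and migratory dendritic cell-like cells, but plasmacytoid dendritic cell-like cells ranked 13 of 19, at 135 CPM. It reached 239, 258 and 290.1 CPM in type 2 dendritic cell-like cells, 261 CPM pooled in type 1 and 239 CPM in migratory dendritic cell-like cells. All libraries of monocyte-like cells, next in order at 191 to 217 CPM, were below those of migratory dendritic cell-like cells at 228 to 261 CPM. Some classes further down reached that range in their highest library. These were granulocyte precursor-like (228.8 CPM), NK cell-like (237 CPM), macrophage-like (235.5 CPM) and plasmacytoid dendritic cell-like cells (259 CPM). Ywhag, the γ isoform, was highest in resident macrophage-like cells, at 159 to 206 CPM. Macrophage-like cells (142 to 168 CPM), stem and progenitor-like cells (133 to 179.6 CPM) and nonclassical monocyte-like cells (114 to 202 CPM) came next, with ranges that overlap. It was the lowest of the 6 genes in 13 of 19 classes. Ywhab, the β isoform, was highest in mast cell-like cells at 238 to 414 CPM and next in monocyte-like cells at 239 to 259 CPM, and lowest in B cell-like cells at 88.2 to 136 CPM.

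**Figure D4:**
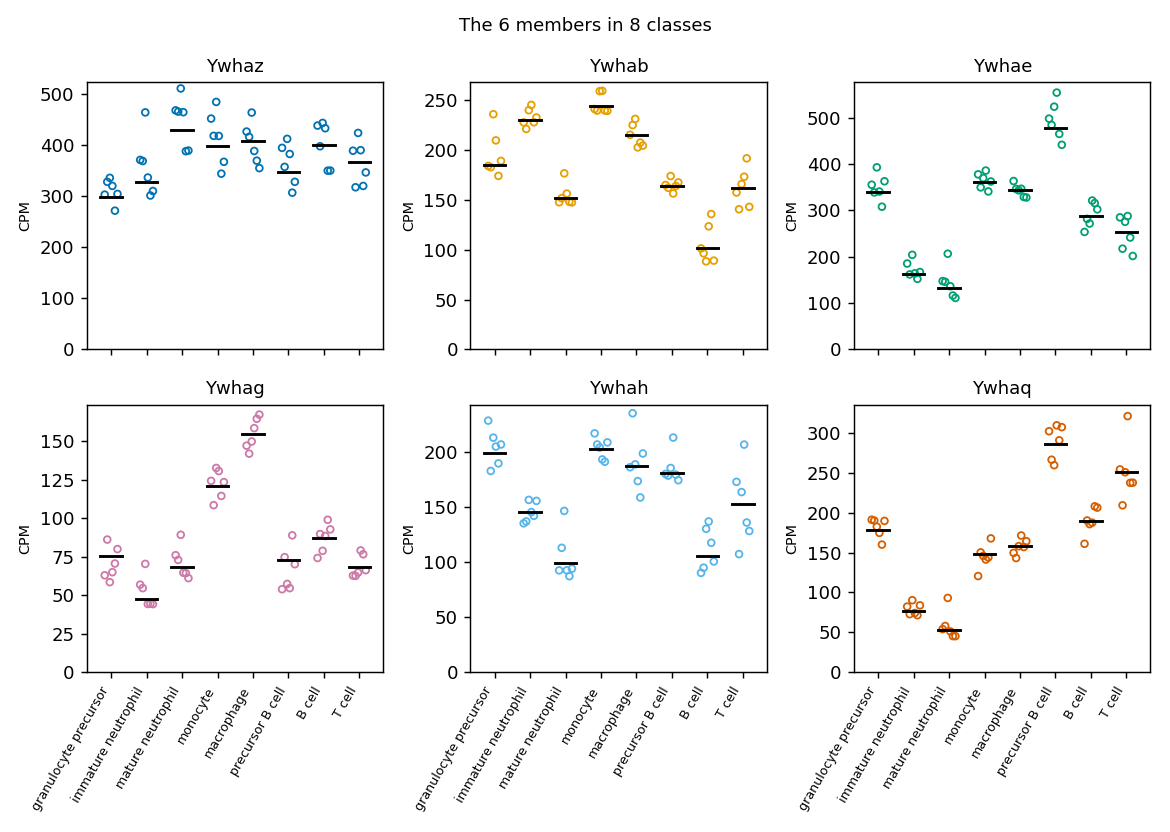
The 6 members in 8 classes, in CPM on linear axes that start at 0; open circles are the 6 barcode libraries and black bars the pooled level. Ywhae, Ywhah and Ywhaq have their lowest bars among these classes in mature neutrophil-like cells, Ywhag in immature neutrophil-like and Ywhab in B cell-like cells, and the circles of Ywhaz overlap across most classes.

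Across the 19 classes, Ywhae and Ywhaq had the highest Pearson correlation of any pair of members (r = 0.77, Spearman rho = 0.53), followed by Ywhae and Ywhah (r = 0.58, rho = 0.65). Ywhaz was close to 0 with 4 of the others, at r of -0.04 to -0.03, and at 0.34 with Ywhab. The classes share libraries and differ in depth, so these are descriptions of 19 points.

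Along the neutrophil classes, from granulocyte precursors to immature and mature cells, Ywhaz went up in CPM while Ywhae, Ywhah and Ywhaq went down. Ywhaz was at 272, 312 and 336 CPM in granulocyte precursor-like cells, at 301, 353 and 464 CPM in immature and at 388, 465 and 511 CPM in mature neutrophil-like cells. Precursor and mature ranges did not overlap (log2 difference of -0.53, precursor minus mature), and the immature level was below the mature one in 6 of 6 libraries, with overlapping ranges (-0.39). For Ywhae, Ywhah and Ywhaq the precursor levels were 2.54, 1.99 and 3.34 times the mature ones, without overlap. Thus 4 of the 6 members differed without overlap between precursor and mature cells, 3 higher and 1 lower in precursors, where 73.6% of all 6766 genes compared did so. Cycling cells, taken as those with at least 3 of 5 detected cycling markers, moved with this order, at 84.5% of granulocyte precursor-like, 28.6% of immature and 0.559% of mature neutrophil-like cells. With 19 precursor cells that had no cycling marker, the comparison could not be made without cycling cells.

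The median gene was 0.70 higher in precursors on the log2 scale, and relative to it Ywhaz was at -1.23, Ywhab at -0.41, Ywhag at -0.56, Ywhah at 0.29, Ywhae at 0.64 and Ywhaq at 1.04. Ywhab and Ywhag, higher in precursors in CPM (0.29 and 0.14), were lower relative to the median gene.

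Per cell, without scaling for depth, every member was lower in mature neutrophil-like cells, Ywhaz included. Median depth fell as well, from 35300 UMIs in precursors to 16675 in immature and 5530 in mature cells. The share of all genes lower per cell was not computed, so this is not particular to the members. A mature neutrophil-like cell held 3.51 Ywhaz UMIs on average (2.53 to 5.96 over libraries), an immature one 6.81 (5.67 to 10.6) and a precursor 10.7 (8.91 to 14.2). Ywhaq was at 0.430, 1.59 and 6.42 UMIs per cell in the same order. The direction for Ywhaz thus depended on whether UMIs were scaled to depth. A lower RNA content and a lower capture of RNA cannot be told apart in these counts.

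**Figure D5:**
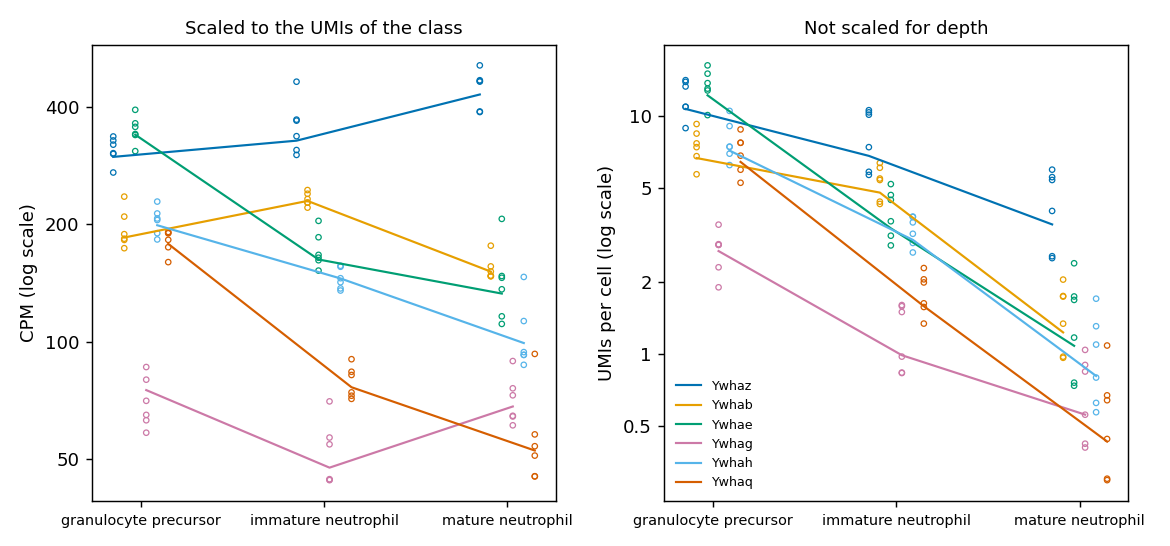
The 6 members in granulocyte precursor-like, immature and mature neutrophil-like cells, as CPM (left) and UMIs per cell (right), both on log axes; lines join pooled values and open circles are the 6 barcode libraries. On the left Ywhaz goes up from 298 to 430.3 CPM while Ywhaq goes down from 178 to 52.7 CPM, and on the right all 6 lines go down.

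Shares of cells with a UMI showed the same dependence. A Ywhaz UMI was found in 84.0% of mature neutrophil-like cells (Wilson 95% interval 83.1% to 84.8%) and in 96.2% of immature ones (95.6% to 96.7%), at medians of 5530 and 16675 UMIs. When each cell was thinned to 3000 UMIs, which left 6607 and 5252 cells, the shares were 69.1% and 61.3%. For Ywhaq the thinned shares were 9.50% in mature and 16.3% in immature neutrophil-like cells, 46.9% in T cell-like and 63.6% in NK cell-like cells. Intervals cover counting error only. No class should lack these genes, so no class gives a background from free RNA. Cd3e, a T cell gene, was found in 0.149% of immature neutrophil-like cells. Ngp, a neutrophil granule gene at 33847 CPM in immature neutrophil-like cells, was found in 0.276% of T cell-like and 2.31% of B cell-like cells. Other markers were higher outside their class, with macrophage markers summing to 707 to 3008 CPM over libraries in mature neutrophil-like cells. The authors had already removed ambient RNA, and the part left in the 14-3-3 counts was not tested.

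Between immature and mature neutrophil-like cells, Ywhab was the member without overlap, at 221, 229.9 and 245 CPM against 147, 149.7 and 176 CPM. That was 1 of 6 members, where 41.7% of all genes compared did not overlap and the median gene was at -0.15. The count rested on barcode library 3. Without it, all 6 members did not overlap, Ywhaz and Ywhag lower and Ywhab, Ywhae, Ywhah and Ywhaq higher in immature cells, against 57.1% of all genes. The immature Ywhaz range was then 301 to 371 CPM and the mature one 388 to 468 CPM. Among cells with no cycling marker (3128 immature and 6875 mature), Ywhab alone did not overlap, again 1 of 6, where 30.4% of all genes did not. In these cells Ywhaq turned direction, at 36.2, 43.8 and 79.5 CPM in immature against 39.7, 47.9 and 90.6 CPM in mature cells, and was lower in immature cells in 5 of 6 libraries.

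Library 3 held 335 mature neutrophil-like cells, the fewest of any library, and in them the highest level of all 6 members. Ywhaq was at 93.2 CPM there and at 45.2 to 58.0 CPM in the other 5, and Ywhae at 207 CPM against 111 to 147.5 CPM. In the same cells, macrophage markers summed to 3008 CPM in library 3 and to 707 to 2049 CPM in the other libraries, and 6 of those 6 markers were highest in library 3. Monocyte markers summed to 1064 CPM in library 3 and 681 to 1011 CPM in the others, with 3 of 5 highest in library 3. Of the immature neutrophil, granulocyte precursor, B cell and T cell markers, 0 of 6 in each set were highest in library 3. B cell markers (12.5 CPM) and granulocyte precursor markers (4.35 CPM) had their lowest sums there. All of these markers were above 0. Library 3 also had the highest level of all 6 members over all cells. In immature neutrophil-like cells it was highest for every member but Ywhab, with Ywhaz at 464 CPM against 301 to 371 CPM. The part of RNA from other cells in the mature neutrophil levels was not tested.

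Between B cell-like and mature neutrophil-like cells, Ywhae was 2.15 times as high in the former (254, 292 and 321 CPM against 111, 141 and 207) and Ywhaq 3.55 times (161, 189 and 208 CPM against 45.2, 52.6 and 93.2), in 6 of 6 libraries. Ywhab went the other way, at 88.2, 98.7 and 136 CPM in B cell-like and 147, 149.7 and 176 CPM in mature neutrophil-like cells. Ywhaz was lower in B cell-like cells in 6 of 6 libraries, by 0.10 on the log2 scale, with overlapping ranges. In all 3 of 6 members did not overlap, where 78.9% of all 6969 genes did not. The median gene was 1.04 higher in B cell-like cells, and relative to it Ywhaz was at -1.14, Ywhab at -1.61, Ywhah at -0.95, Ywhag at -0.69, Ywhae at 0.07 and Ywhaq at 0.79, so that Ywhag and Ywhah changed sign. Per cell, B cell-like cells held 2.62 Ywhaz UMIs and mature neutrophil-like cells 3.51, and Ywhah was the member whose direction turned. In cells with at most 1 marker of any other class (1626 B cell-like and 2047 mature neutrophil-like), the Ywhab difference reversed, to 0.28 in favor of B cell-like cells.

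Precursor B cell-like cells were above B cell-like cells in 4 members without overlap. Ywhab was at 156, 164 and 174 CPM in precursors, Ywhae at 442, 491 and 554 CPM, Ywhah at 175, 180.0 and 213 CPM and Ywhaq at 260, 297 and 310 CPM, each above the B cell-like range. The folds were 1.61, 1.66, 1.70 and 1.51. Ywhaz and Ywhag were lower in precursors in 6 of 6 libraries, with overlapping ranges. Within libraries the log2 difference was -0.19 to -0.09 for Ywhaz and -0.69 to -0.15 for Ywhag, and pooled it was -0.21 and -0.26. Per cell, precursors held more of each (4.38 against 2.62 Ywhaz UMIs). Of all genes compared, 43.2% did not overlap, and the median gene differed by 0.08. Cycling cells made up 36.6% of precursor B cell-like and 3.33% of B cell-like cells. Among cells with no cycling marker (443 and 2061), the count of members without overlap was 1 of 6, where 26.8% of all genes did not overlap. That member was Ywhae, at 329, 351 and 381 CPM in precursors and 244, 272 and 284 CPM in B cell-like cells. Ywhah, 1.70 times as high in precursors over all cells, was then at 76.4, 93.9 and 116 CPM against 80.2, 95.2 and 119 CPM, a log2 difference of 0.03. Ywhaq remained higher in precursors in 6 of 6 libraries, at 176, 259.6 and 263 CPM against 157, 177 and 195 CPM.

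T cell-like cells were above B cell-like cells in Ywhab (140, 161 and 191 CPM against 88.2, 98.7 and 136) and Ywhaq (209, 244 and 321 CPM against 161, 189 and 208), without overlap. Ywhah was also higher in 6 of 6 libraries, with overlapping ranges. Ywhaz and Ywhag were lower in T cell-like cells in 6 of 6 libraries, by 0.13 and 0.35, again with overlap, while per cell T cell-like cells held more of each (3.91 against 2.62 Ywhaz UMIs). The count of 2 of 6 stands beside 44.1% of all genes, whose median difference was -0.10. Cycling cells made up 8.09% of T cell-like and 3.33% of B cell-like cells. Among cells with no cycling marker (738 and 2061), 2 of 6 members did not overlap, Ywhab higher and Ywhae lower in T cell-like cells, where 41.6% of all genes did not. Ywhae was then at 190.1, 205 and 238 CPM against 244, 272 and 284 CPM, while Ywhaq overlapped by a small margin (195 to 340.4 CPM against 157 to 195 CPM). In cells with at most 1 marker of any other class (578 and 1626), 0 of 6 members were without overlap, beside 37.9% of all genes. Ywhab was still higher in T cell-like cells in 6 of 6 libraries there, and Ywhaq in 5 of 6.

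Monocyte-like cells had more Ywhab than macrophage-like cells (239, 240.0 and 259 CPM against 202, 211 and 231) and less Ywhag (109, 124 and 133 CPM against 142, 154 and 168), a fold of 1.14 and of 1.28. The other 4 members overlapped. Ywhaz had a pooled log2 difference of -0.04, but was higher in monocyte-like cells in 5 of 6 libraries. Per cell it was also higher there (8.05 against 7.48 UMIs). In all, 2 of 6 members did not overlap, with 34.7% of all genes not overlapping. Cycling cells made up 29.0% of monocyte-like and 1.03% of macrophage-like cells. Among cells with no cycling marker (2325 and 3089), the count was again 2 of 6, where 26.2% of all genes did not overlap, but the members were Ywhag and Ywhaq. Ywhaq was then at 107, 116 and 134 CPM in monocyte-like against 145, 160.5 and 168 CPM in macrophage-like cells, and Ywhab overlapped (226 to 258 against 201 to 227 CPM). In cells with at most 1 marker of any other class (1019 and 184), Ywhag, Ywhah and Ywhaq were lower in monocyte-like cells without overlap, by log2 differences of -0.42, -0.59 and -0.52, where 19.6% of all genes did not overlap.

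Between macrophage-like and resident macrophage-like cells, compared over 5 libraries, Ywhaq was the member without overlap, at 149.7, 158 and 172 CPM against 179, 203 and 236 CPM, where 20.6% of all genes did not overlap. Ywhae was also higher in resident macrophage-like cells in 5 of 5 libraries, with overlapping ranges (1.24-fold). Leaving out 1 library moved the count from 1 to 2. Without library 4 Ywhag was also lower in macrophage-like cells without overlap (26.4% of all genes), and without library 6 Ywhae was (30.4% of all genes). The resident class had 122 cells, and the median gene was at -0.12, relative to which Ywhaz and Ywhab changed sign (0.01 and 0.05). Per cell, macrophage-like cells held more of every member, Ywhaq included (2.90 against 2.44 UMIs). Their median depth was also greater (16058 against 12172 UMIs), and the share of all genes higher per cell was not computed.

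Cycling cells were compared with non-cycling cells of the same class, since several 14-3-3 clients act in the cell cycle. Cells with at least 3 of the 5 cycling markers were set against cells with none. Ywhah was higher in cycling cells without overlap in all 5 classes that had enough cells. In precursor B cell-like cells it was at 218, 223 and 280 CPM in 330 cycling cells and 76.4, 93.9 and 116 CPM in 443 others, a log2 difference of 1.22. It was 1.34 in T cell-like, 1.22 in B cell-like, 0.50 in immature neutrophil-like and 0.39 in monocyte-like cells.

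Ywhaq was higher in cycling cells in every library of all 5 classes, without overlap in 4 of them. The largest difference was in immature neutrophil-like cells, at 100.5, 121 and 126 CPM in 1534 cycling cells against 36.2, 43.8 and 79.5 CPM in 3128 others (1.40). Ywhae was higher in every library as well, without overlap in 4 classes, with log2 differences of 0.26 to 0.85. Ywhab was higher without overlap in T cell-like and precursor B cell-like cells (0.78 and 0.66). Its log2 difference was 0.81 in B cell-like cells, with overlap, and -0.06 and 0.04 in immature neutrophil-like and monocyte-like cells.

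Ywhaz and Ywhag had no class in which their ranges separated. Ywhaz was lower in cycling immature neutrophil-like cells in 6 of 6 libraries (-0.31) and higher in cycling B cell-like cells in 4 of 4 (0.20), and ranges overlapped in both. In all, 2 members did not overlap in immature neutrophil-like cells, 3 in monocyte-like, 3 in T cell-like, 4 in precursor B cell-like and 3 in B cell-like cells. The same share of all genes was 38.7%, 36.6%, 30.7%, 33.4% and 30.5%. Without library 3 the count in immature neutrophil-like cells was 4, with Ywhaz lower and Ywhae higher in cycling cells (50.9% of all genes), and without library 4 the count in T cell-like cells was 5 (38.6% of all genes). Cycling cells were deeper, with medians of 15662 to 29143 UMIs against 5641 to 15874 in the others, and the median gene moved by -0.16 to 0.08. Per cell, without scaling for depth, every member was higher in cycling cells in all 5 classes, by 1.40 to 7.02 times. The direction for Ywhaz in immature neutrophil-like cells thus turned, to 9.36 UMIs per cycling cell against 5.41 in the others. Since cycling cells were picked by detected markers, deeper cells were favored, and the share of all genes higher per cell was not computed.

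Libraries also differed within a class. Over the 14 classes with at least 10 cells in every library, Ywhaz was highest in library 3 in 11 classes and lowest in library 5 or 6 in 13. The lowest library was 5 or 6 in 11 of 14 classes for Ywhae, 6 for Ywhah, 5 for Ywhab, 4 for Ywhaq and 2 for Ywhag. Library 3 was highest in 7 classes for Ywhab and Ywhae, 5 for Ywhaq and 3 for Ywhag and Ywhah. The same counts over all genes were not made. The steadiest value was Ywhab in monocyte-like cells, where the highest library was 1.08 times the lowest and 0.274% of 1825 genes of at least 100 CPM had a smaller spread. Ywhaz in the same cells had a spread of 1.41, which 41.6% of genes undercut.

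For each member, the 5 genes with the most similar pattern over the 19 classes were listed. Those of Ywhaz were Il10ra (r = 0.85, rho = 0.82), Rgs2, Fam105a, Ssfa2 and Pak2 (r = 0.75). Those of Ywhab had lower values, and included Vcl at 0.75, Eif4e3, Arrb1 and Ctsd at 0.66. Ywhae was closest to Nsfl1c (0.91), Vcp (0.90), Apopt1, Hint2 and Psmd1. Ywhag was closest to Twf1 (0.87), Rrbp1, Kcmf1 (r = 0.86, rho = 0.93), Heatr5a and Zfp385a. Ywhah was closest to Cfl1 (0.90), which encodes the actin-severing protein cofilin, and to Cox5b, Dctn3, Rbx1 and Ube2l3. Ywhaq was closest to Axin1 (0.93), Smek1 (0.92), Ddx42, Dhx15 and Fam179b. These lists were sensitive to the measure, since ranking by Spearman rho kept 2 or 3 of the 5 for each member.

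The genes of the adiponectin and PEPITEM pathway were a list of 12. Its receptors were the most abundant, Adipor1 at 150.3 CPM and Adipor2 at 98.8 CPM over all 19 classes, followed by Appl1, their adaptor, at 52.6 CPM. Adipor1 was highest in mature neutrophil-like cells (358 CPM, against 51.0 CPM in B cell-like cells), Adipor2 in plasmacytoid dendritic cell-like cells (336 CPM) and Appl1 in type 2 innate lymphoid-like cells (302 CPM). S1pr1 and S1pr4, receptors of sphingosine-1-phosphate, were at 19.4 and 19.7 CPM, with S1pr1 at 175 CPM in B cell-like and 115 CPM in T cell-like cells. Sphk2, a sphingosine kinase, was at 16.0 CPM. Adipoq encodes adiponectin, and Cdh15 a cadherin that is a putative PEPITEM receptor on inflamed endothelium. They had 29 and 12 UMIs in all and were named after their values were seen. Only 11 endothelial-like cells were found.

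Between B cell-like and mature neutrophil-like cells, 6 of the 12 pathway genes reached 20 CPM, and 3 were higher and 3 lower without overlap, where 78.9% of all genes did not overlap. Their median log2 difference was 0.41, beside 1.04 over all genes. The list of 14-3-3 clients had 18 genes, led by Zfp36, an mRNA-destabilizing protein, at 498 CPM and the kinase gene Braf at 323 CPM. Foxo3 was at 87.0 CPM, Foxo1 at 79.7 and Hdac4 at 78.8 CPM. Braf was highest in mature neutrophil-like cells (886 CPM), Foxo1 in B cell-like cells (740.5 CPM) and Zfp36 in mast cell-like cells (1842 CPM). Of 8 clients compared between immature and mature neutrophil-like cells, none was higher and 6 were lower in immature cells without overlap. Of all 5054 genes compared, 41.7% did not overlap, 895 higher and 1215 lower in immature cells. The median of the clients was -1.37, beside -0.15 over all genes. Granulocyte precursor-like cells leaned the same way against mature neutrophil-like cells, with 2 of 10 clients higher and 7 lower, beside 73.6% of all genes. The median of these clients was -1.42, beside 0.70 over all 6766 genes compared, of which 3192 were higher and 1791 lower without overlap. Against macrophage-like cells, monocyte-like cells had 0 of 10 higher and 1 lower, beside 34.7%. Macrophage-like against resident macrophage-like cells had 0 of 14 higher and 2 lower, beside 20.6%. In the pairs with B cell-like cells, clients went both ways. Of 12 compared between B cell-like and mature neutrophil-like cells 4 were higher and 4 lower, beside 78.9% of all genes. Their median was -0.12, beside 1.04 over all genes. Of 15 compared between precursor B cell-like and B cell-like cells 5 were higher and 3 lower, beside 43.2%. The median there was 0.37, beside 0.08. Of 13 compared between T cell-like and B cell-like cells 2 were higher and 3 lower, beside 44.1%. The median there was -0.54, beside -0.10.

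Sfn encodes the σ isoform, a 14-3-3 protein best known in epithelium, and was looked at beside the family. It was at 13.1, 20.4 and 22.1 CPM in B cell-like cells, at 15.3, 17.7 and 29.2 CPM in T cell-like cells and at 4.43, 6.12 and 6.82 CPM in mature neutrophil-like cells, below every B cell-like library. Precursor B cell-like cells were lower, at 1.51, 3.95 and 4.99 CPM. Its highest pooled level, 31.7 CPM in type 2 innate lymphoid-like cells, came from 20 UMIs.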

How the data were processed

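CD45+ cells from the digested joints of 6 samples were profiled with 3′ droplet libraries. The authors deposited 1 table of whole-number UMI counts per gene and cell, made by aligning reads to mm10 with Cell Ranger 7, removing ambient RNA with SoupX and doublets with DoubletFinder, and filtering cells in Seurat. The deposited table stores 1724738 zeros among its entries. No further doublet step was applied. The libraries held 47273569 to 123367661 UMIs.

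The members, gene lists and marker lists were chosen with earlier results of these data known, and the scoring rule of the gate was set after the table was seen. A cell was given the class with the highest mean of its markers, each scaled to the 90th percentile of the positive cells, provided that at least 3 markers were detected. Counts were summed per class and library and divided by the total, for classes of at least 50 cells and libraries with at least 10. Genes of at least 20 CPM in either class of a pair entered the shares of all genes, and a pseudocount of 1 CPM was used on the log2 scale. Thinned shares are the expected shares after drawing 3000 UMIs per cell without replacement. Genes were named as the 6 members and Sfn, at most 6 of each list by highest pooled CPM, and the 5 genes of highest Pearson r with each member, and some genes these rules name are not reported here. Wilson 95% intervals cover counting error only. The planned edgeR test of PEPITEM against PBS, with its DESeq2 alternative, was not run, because cells could not be tied to samples. Scripts were tested on simulated data and run in Python 3.11.15 with numpy 2.4.6, scipy 1.17.1, pandas 2.3.3, matplotlib 3.10.9 and Biopython 1.88. The alternatives covered the marker number, the weighting of cells and libraries, depth, cycling cells, single libraries, thinning and the CPM floor.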

Additional observations from a re-analysis of the deposited data

Results flagged for a closer look

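In CPM, Ywhaz moved in opposite directions between cycling and non-cycling cells of 2 classes. The log2 difference was -0.31 in immature neutrophil-like cells, where the cycling level was lower in 6 of 6 libraries, and 0.20 in B cell-like cells, where it was higher in 4 of 4. Ranges overlapped in both, and the difference between the classes was not tested. The B cell-like value rested on 78 cycling cells. Per cell, Ywhaz was higher in cycling cells of both classes. It was at 9.36 against 5.41 UMIs in immature neutrophil-like and 7.35 against 2.42 UMIs in B cell-like cells.

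The 2981 cells that fell in no class, which entered none of the comparisons, held Ywhaz at 386.0 CPM.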

How the results depend on the processing

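No paired analysis was possible because the library numbers of the barcodes cannot be tied to samples, so that PBS and PEPITEM samples of the same replicate number could not be matched. For the same reason the treatment comparison and its alternatives were not run. Classes of the same library were compared by the number of libraries in each direction. Of the 42 log2 differences between classes, 40 moved by less than the SD over libraries when 2 markers were needed and 42 when 4 were needed or when cells under 3000 UMIs were left out. Taking the mean over cells moved 13 by more than that and the median of libraries 4, with 2 changes of sign each. The alternatives without depth scaling, centred on the median gene, without cycling cells and without single libraries in the cycling comparison were chosen after seeing the data. In UMIs per cell 16 of 42 signs changed, centred on the median gene 6 of 42, and in cells with no cycling marker 4 of 36. In cells with at most 1 marker of any other class 4 of 24 signs changed, and 3 pairs gave no value.

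Directions reversed for Ywhab between B cell-like and mature neutrophil-like cells (0.28 in cells with at most 1 other marker). In UMIs per cell they reversed for Ywhaz between granulocyte precursors and mature neutrophils (1.61) and for Ywhaq between macrophages and resident macrophages (0.23). Without thinning, the percent of cells with a UMI, mature minus immature, reversed for Ywhaz (-12.2, against 7.85 thinned) and Ywhag (-21.7, against 1.54). The thinned levels are not at the same depth as the unthinned ones. For the rest of these changes the cause was not tested.

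The count of members without overlap between immature and mature neutrophil-like cells was 4 as a mean over cells and 4 in UMIs per cell. Leaving out libraries gave 1 to 6, the 6 without library 3. Monocytes against macrophages gave 0 in UMIs per cell, and macrophages against resident macrophages 0 both as a mean over cells and in UMIs per cell, and 1 to 2 over libraries left out, the 2 without library 4 or 6. Precursor B cell-like against B cell-like gave 1 with no cycling marker. T against B cell-like gave 0 in cells with at most 1 other marker, 1 as a mean over cells and 4 in UMIs per cell. For the mean over cells and for UMIs per cell, the share of all genes without overlap was not computed. Those counts thus cannot be set against other genes. The cycling count ran from 2 to 4 in immature neutrophil-like cells (4 without library 3) and from 3 to 5 in T cell-like cells (5 without library 4). With a floor of 5 CPM the shares of all genes in the pairs were 16.7% to 76.1%, within 1.5 times the main ones. Of the 5 genes most like each member, ranking by rho kept 2 or 3, and a floor of 50 CPM kept 2 to 5.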

Other observations

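In the cells that fell in no class, Ywhae was at 389 CPM, Ywhaq at 232, Ywhah at 189, Ywhab at 149 and Ywhag at 106 CPM, so that Ywhae was as high as Ywhaz. A cell of no class held 2.82 Ywhaz UMIs on average.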
